A study of Mus musculus with 8 samples.

Results

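The mitochondrial ribosomal proteins examined here are the 78 genes, of 55487 rows in the deposited table, whose symbol is Mrpl or Mrps followed by a number and at most 1 further letter. Of them 49 are named for the large subunit (Mrpl) and 29 for the small subunit (Mrps). Their transcript levels came from RNA sequencing of intestinal epithelial cells, the single cell layer that lines the gut, taken from mouse colon. Wild type mice (WT) gave 4 libraries and mice labelled PIM1+/- gave 4, the latter carrying a heterozygous genotype of the serine/threonine kinase gene Pim1, all on the C57BL/6J strain and with no treatment given in the labels. The age of the mice and the structure of the altered allele were not stated in the labels. Levels are in TPM, a measure of relative transcript abundance that is corrected for transcript length and in which every library has the same total. The depth behind each value is unknown, because that scale keeps no read number. Nothing in the labels says that libraries of a genotype are separate animals, and p-values then reflect only how far these libraries spread, which may be technical.

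Mitochondria keep a ribosome of their own, which translates the few proteins still encoded by mitochondrial DNA, all of them core subunits of the respiratory chain and ATP synthase. Its ribosomal RNAs are made inside the organelle, while every one of its proteins is encoded in the nucleus, made in the cytosol and imported. Part of these proteins have counterparts in bacterial ribosomes and the others are specific to mitochondria. Many nuclear genes for mitochondrial proteins carry promoter motifs for the factors NRF1, the ETS family (which includes GABPA) and YY1. In the gut, colonocytes rely on mitochondrial oxidation of butyrate as a fuel.

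Promoter sequences are shown for Mrps6, the only member that fell in the comparison below, and for 3 of the genes that rose and carry 2 motif matches each, Mrpl17, Mrpl27 and Mrpl53. Mrps18a, which also rose and carries 2 matches (ETS at -26, YY1 at 12), is not shown. They come from RefSeq on GRCm38.p6, run 5′ to 3′ from 250 bases before the RefSeq start to 30 after it (280 bases), and have motif matches in capitals. The positions are chr16:92058086-92058365 on the plus strand for Mrps6, chr7:105811058-105811337 on the minus strand for Mrpl17, chr11:94653541-94653820 on the plus strand for Mrpl27 and chr6:83108858-83109137 on the plus strand for Mrpl53.
Mrps6: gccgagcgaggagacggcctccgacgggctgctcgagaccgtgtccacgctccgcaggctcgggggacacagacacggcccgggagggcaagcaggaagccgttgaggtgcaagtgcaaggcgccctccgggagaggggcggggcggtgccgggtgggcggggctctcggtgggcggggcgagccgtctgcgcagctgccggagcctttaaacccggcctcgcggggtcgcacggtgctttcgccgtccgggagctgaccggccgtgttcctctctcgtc
Mrpl17: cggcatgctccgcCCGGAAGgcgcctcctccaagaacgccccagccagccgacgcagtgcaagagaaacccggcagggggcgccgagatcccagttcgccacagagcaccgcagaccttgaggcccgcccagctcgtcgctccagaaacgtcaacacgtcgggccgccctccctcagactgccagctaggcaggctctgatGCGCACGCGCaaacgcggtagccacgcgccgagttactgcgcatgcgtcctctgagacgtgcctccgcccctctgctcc
Mrpl27: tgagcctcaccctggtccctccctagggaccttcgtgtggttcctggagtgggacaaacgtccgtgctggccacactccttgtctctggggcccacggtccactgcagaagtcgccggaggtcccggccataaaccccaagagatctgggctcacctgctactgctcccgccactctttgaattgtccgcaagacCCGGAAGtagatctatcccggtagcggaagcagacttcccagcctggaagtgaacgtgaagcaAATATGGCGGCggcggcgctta
Mrpl53: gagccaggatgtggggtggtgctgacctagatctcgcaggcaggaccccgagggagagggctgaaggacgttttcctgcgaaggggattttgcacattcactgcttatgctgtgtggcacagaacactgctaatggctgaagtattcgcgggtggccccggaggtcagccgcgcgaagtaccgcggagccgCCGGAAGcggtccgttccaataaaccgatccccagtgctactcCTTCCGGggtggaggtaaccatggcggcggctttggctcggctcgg
The letters searched, on both strands, were GCGCANG followed at once by CGC for NRF1, CCGGAAG for ETS factors, AANATGG followed at once by CGGC for YY1 and CACGTG for the E-box read by MYC and MAX. No motif holds the letters of another. In Mrpl17 the first base of the ETS match lies at position -237 and that of the NRF1 match at -49, counted from the start site. In Mrpl27 an ETS match begins at -55 and a YY1 match at 9, and in Mrpl53 ETS matches begin at -59 and -16. The Mrps6 window holds none of these letters, nor do those of Mrpl16 and Mrpl55, which rose and are not shown. Mrps28 and Mrpl54, which also rose, had no window.

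The promoter table matched 69 of the 78 members, and the full windows of 300 bases, which end 50 bases after the start, were searched. An ETS match was present in 26 members (37.7%), against 9.93% of the 27025 genes in the table and 13.4% of its 16522 protein-coding genes. NRF1 letters were present in 13 members (18.8%), against 5.19% and 7.45%. YY1 letters were present in 7 members (10.1%), against 1.17% and 1.73%. The E-box was present in 5 members (7.25%), against 8.09% and 9.18%. At least 1 of these motifs was found in 42 members (60.9%), against 21.0% of all genes in the table. The share among protein-coding genes alone, which was higher for each single motif, was not computed. NRF1 letters occurred in 10 of 43 large subunit genes and 3 of 26 small subunit genes, and ETS letters in 15 and 11. Among the 9 members that rose and had a window, a motif was found in 7, and among the 59 members without a call in 35. A match describes the letters only and says nothing of binding.

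All 78 members were expressed. They all passed the filter for testing, a level of 1 TPM reached by 4 or more of the 8 libraries, and 77 stood at 1 TPM or more in every library. Mean WT levels ran from 4.42 to 289 TPM with a median of 41.2, and the median was 43.0 TPM for the large and 38.5 TPM for the small subunit. In WT, 10 members exceeded 100 TPM and 4 stayed under 10. The 3 highest, Mrpl52, Mrps21 and Mrpl42, made up 16.5% of the summed level of all members in WT. Mrpl52, a mitochondrion-specific protein of the large subunit, measured 305, 272, 295 and 285 TPM in WT and 263, 287, 268 and 271 TPM in PIM1+/- (replicates 1 to 4 in order, here and in the sentences that follow), so the genotypes overlapped. The lowest were Mrpl23, Mrpl19 and Mrpl35, at 4.42, 7.04 and 8.45 TPM in WT. Spread within a genotype was small for most members, with a median relative SD of 7.90% in WT and 6.99% in PIM1+/-. It exceeded 20% in 3 members, Mrpl23, Mrpl35 and Mrps25. Over the 78 members, which share the same libraries, the rank correlation of WT level in TPM with transcript length was -0.576. That of the log2 fold change was 0.116 with WT level and -0.22 with transcript length. Length was that of the longest annotated coding transcript. TPM is itself corrected for length, so level and length are not independent measures.

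The comparison of PIM1+/- with WT libraries asks how the transcripts of this ribosome differ between the genotypes in colon epithelium. With the values as deposited, 11 of the 78 members rose in PIM1+/- libraries, 7 of the large and 4 of the small subunit, and 1, Mrps6, fell. The increases were modest, from 14.1% to 31.4% in mean TPM, while Mrps6 fell by 35.7% (ratio of mean TPM 0.643). Across all 12760 genes tested 8.93% were called higher and 8.54% lower, against 14.1% of the members called higher. The test was limma on log2(TPM + 1) with Benjamini-Hochberg adjustment over all genes tested and a threshold of 0.05. Log2 fold changes are PIM1+/- over WT on that scale, which understates changes of low genes, and are given ± SE. The members' median log2 fold change was 0.13, against -0.01 for all genes tested, and 61 of 78 members had a positive value (78.2%, against 48.0% of all genes). In bulk RNA, fewer cells of a type and less RNA per cell cannot be told apart.

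How many members passed depended on the libraries and on the scaling. The number higher was 3 without WT replicate 1 or WT replicate 4, 4 without PIM1+/- replicate 1 or 2, 6 without WT replicate 3 or PIM1+/- replicate 4, 7 without PIM1+/- replicate 3 and 11 without WT replicate 2. In the fits with 3 members higher (3.85%), 6.12% and 5.90% of all genes were higher, and in those with 4 (5.13%), 6.28% and 6.89%, so the members' share was then below that of all genes. Without WT replicate 3 or PIM1+/- replicate 4 the members' share was 7.69%, against 6.97% and 7.65%. Without PIM1+/- replicate 3 it was 8.97% against 6.64%, and without WT replicate 2 it was 14.1% against 8.0%. Of the members called without WT replicate 2, 8 were also called with all libraries, Mrps6 included. Mrpl17, Mrpl27, Mrps18a and Mrps18b were then lost, and others such as Mrpl10 passed. With all 17 ways of processing counted, Mrps6 and Mrps28 passed in every one, Mrpl55 in 16, Mrpl12 and Mrps22 in 12, Mrpl17 and Mrpl53 in 7, Mrpl27 in 6, Mrpl54, Mrps18a and Mrps18b in 5 and Mrpl16 in 4. After leaving out the mitochondrially encoded transcripts, 3 members were higher (3.85%) and 1 lower, with 6.70% of all genes higher and 12.2% lower.

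Most members moved little. A log2 fold change within 0.2 of zero was measured for 63 of 78, and within 0.4 for 77, the exception being Mrps6. The 95% interval of a member's log2 fold change reached 0.172 to either side of the estimate in the median member. Without any overlap between genotypes were 20 members that were higher in PIM1+/- and 1 that was lower. Over all genes tested, 11.9% were higher without overlap and 11.6% lower. Of those 20 members 10 did not pass the test. An adjusted p between 0.05 and 0.1 in limma was measured for 10 members, 7 of them among the 20. An unadjusted p under 0.05 was reached by 29 members (37.2%), against 32.4% of all genes tested.

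**Figure D1:**
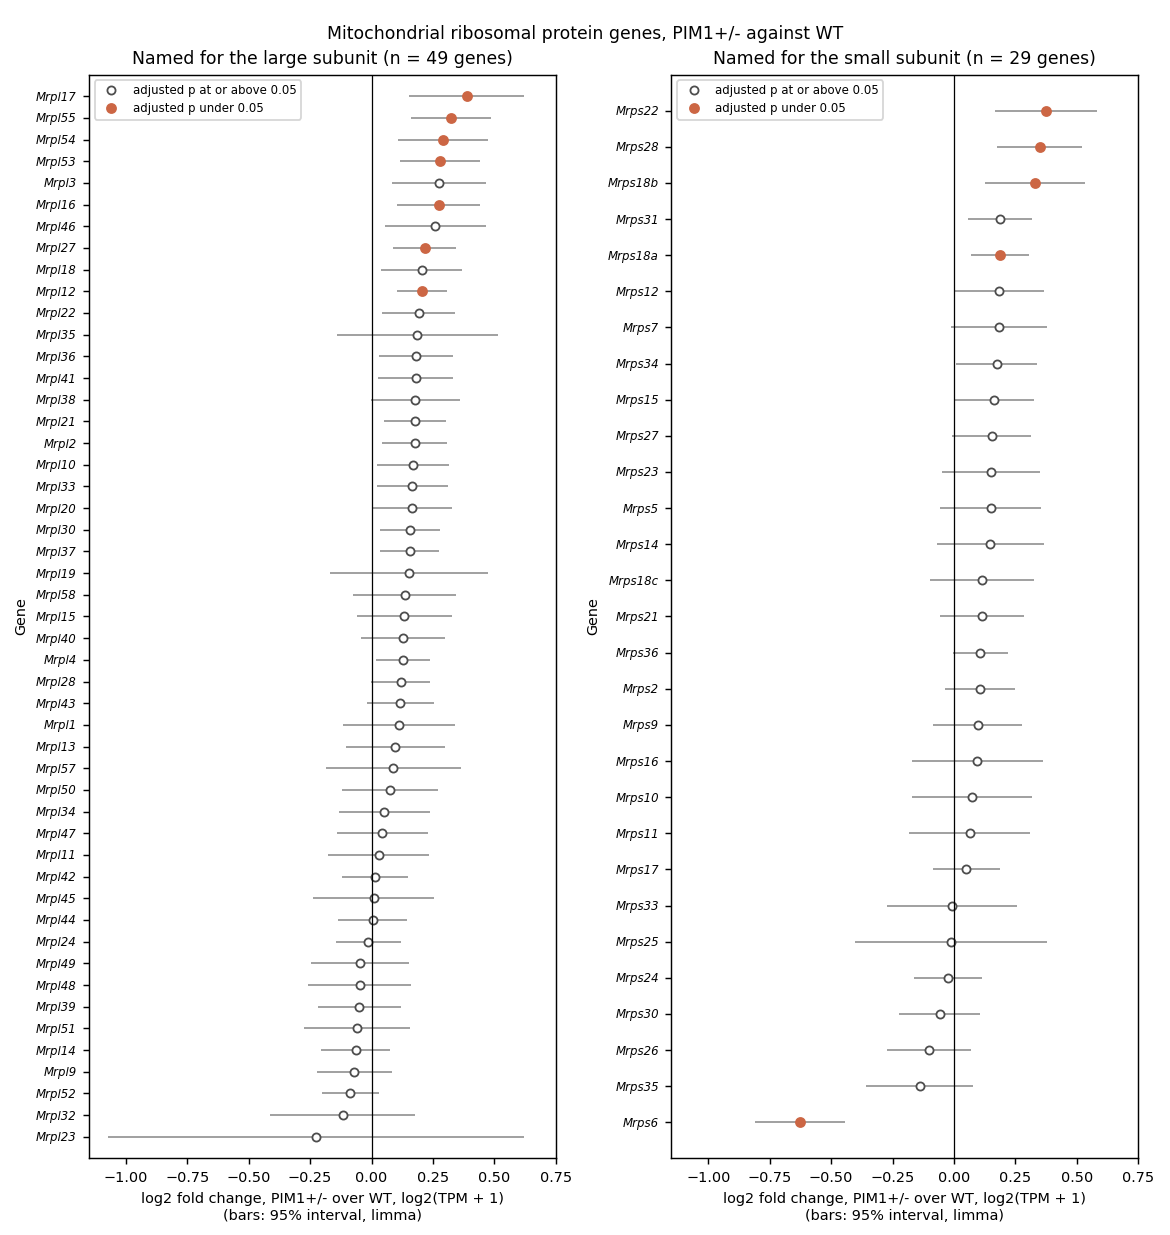
Log2 fold change (PIM1+/- over WT, log2(TPM + 1) scale) of each of the 78 genes, with 95% intervals from limma as bars, for the 49 genes named for the large subunit (left) and the 29 named for the small subunit (right). Filled points passed an adjusted p of 0.05 with values as deposited. Most points lie slightly right of zero and Mrps6 stands alone at -0.63; with mitochondrial transcripts and their nuclear copies left out of the scaling, 46 in place of 61 genes had a positive value.

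Mrps6 encodes the mitochondrial counterpart of bacterial small subunit protein S6, which pairs with the S18 family on the platform of the subunit. The gene (ENSMUSG00000039680) lies on chromosome 16 from 92058270 to 92112227, plus strand, in GENCODE release M21 on GRCm38. It measured 139, 139, 153 and 116 TPM in WT and 83.4, 87.8, 89.0 and 91.7 TPM in PIM1+/-. Each WT library was above each PIM1+/- library, and Mrps6 ranked 4 of 78 by level in WT. On the log2 scale it fell by 0.63 ± 0.08, with a 95% interval from -0.81 to -0.44 and a limma adjusted p = 0.00144. It passed in all 17 ways of processing, with adjusted p from 0.000388 to 0.0102.

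Other genes occupy the Mrps6 locus. Slc5a3, which encodes a sodium-coupled myo-inositol transporter, lies on the same strand from 92058322 to 92087473, so its annotated start is 52 bases from that of Mrps6. The exons of the pair share 159 bases, 10.4% of the exonic bases of Mrps6. Slc5a3 measured 11.9, 10.2, 14.2 and 9.98 TPM in WT and 4.11, 4.67, 5.12 and 5.28 TPM in PIM1+/-. Its genotypes did not overlap either, and it fell to 0.414 of the WT mean (log2 fold change -1.11 ± 0.12, limma adjusted p = 0.000561). The predicted gene Gm49711, also on the same strand, shares 305 exonic bases with Mrps6 (19.9% of the exonic bases of Mrps6). Gm49711 went from 2.69 ± 0.21 to 1.42 ± 0.07 TPM (SD, n = 4; log2 fold change -0.61 ± 0.10, limma adjusted p = 0.00467). A further noncoding gene on the same strand, Gm16310, lies within Mrps6 from 92094568 to 92096490. It measured 0.98 ± 0.26 TPM in WT and 0.37 ± 0.24 TPM in PIM1+/- (SD, n = 4) and was too low to be tested. Estimation divides reads from shared exons among such genes, and the part of that division in the Mrps6 result was not tested. These neighbours were singled out after their values were seen.

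**Figure D2:**
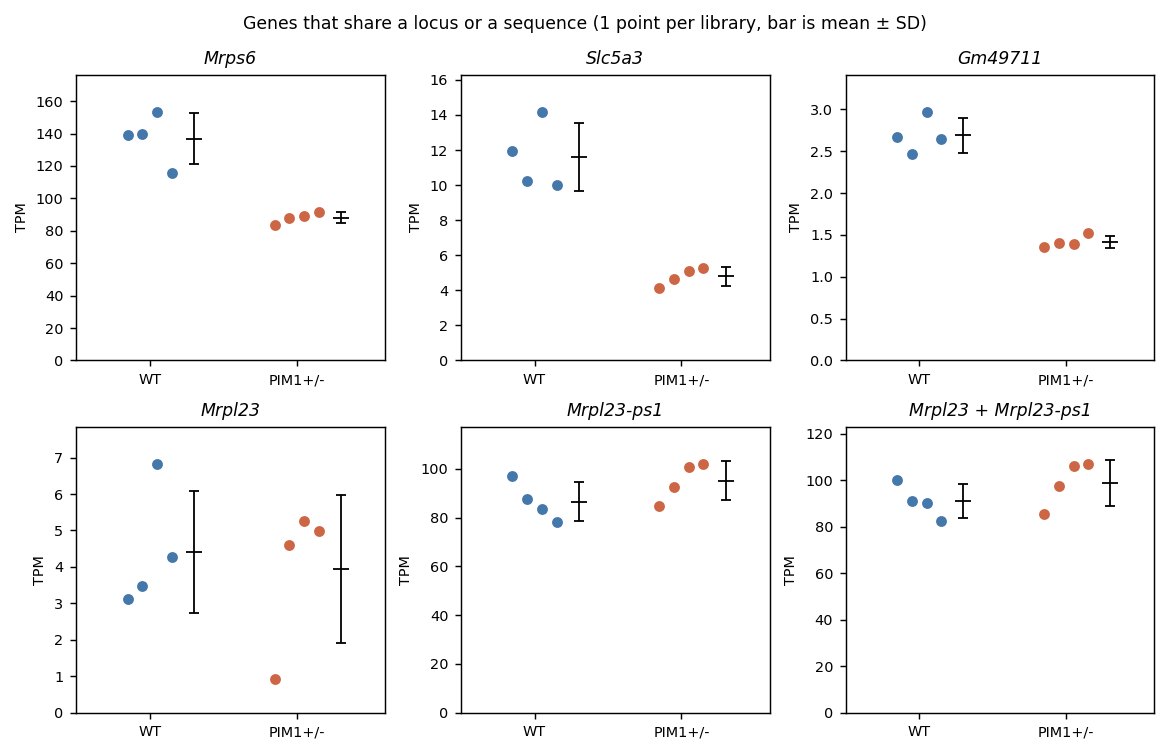
TPM per library (points; bars are mean ± SD, n = 4) of Mrps6 and the same-strand genes Slc5a3 and Gm49711 at its locus (top), and of Mrpl23, its pseudogene Mrpl23-ps1 and their sum (bottom). All 3 genes in the top row are lower in every PIM1+/- library than in any WT library, while Mrpl23, its pseudogene and their sum overlap between genotypes.

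Among small subunit genes, 4 rose with values as deposited. Mrps28 (ENSMUSG00000040269, chromosome 3, 8802146 to 8923918) measured 32.6, 36.7, 40.9 and 34.9 TPM in WT and 47.6, 42.9, 46.4 and 48.5 TPM in PIM1+/-. The genotypes did not overlap, with WT replicate 3 the highest WT library. The log2 fold change was 0.35 ± 0.08 (limma adjusted p = 0.0148), and it passed in all 17 ways of processing, with an adjusted p of at most 0.0475. Mrps22, a mitochondrion-specific protein whose human gene is a known mitochondrial disease gene (ENSMUSG00000032459, chromosome 9, 98588730 to 98601660), measured 20.8, 21.0, 23.6 and 20.1 TPM in WT and 32.4, 25.5, 25.3 and 29.2 TPM in PIM1+/-. Every PIM1+/- library was above every WT library, by little for PIM1+/- replicates 2 and 3. Its log2 fold change was 0.37 ± 0.09 (limma adjusted p = 0.0233), and the call was lost without WT replicate 1 (0.0634), WT replicate 4 (0.0635) or PIM1+/- replicate 4 (0.0521).

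The Mrps18 genes are 3 paralogues related to bacterial S18, and their products sit at different places. Mrps18b, whose product is a separate protein of the small subunit (ENSMUSG00000024436, chromosome 17, 35910379 to 35916389), measured 43.2, 47.5, 46.3 and 46.2 TPM in WT and 66.9, 62.8, 51.8 and 51.3 TPM in PIM1+/-. PIM1+/- replicates 1 and 2 were well above the other PIM1+/- libraries, and all 4 were above WT (log2 fold change 0.33 ± 0.09, limma adjusted p = 0.0368). This call held without PIM1+/- replicate 3 or 4 and was lost without any of the other libraries (adjusted p up to 0.0956). Mrps18a, which despite its name sits in the large subunit (ENSMUSG00000023967, chromosome 17, 46110986 to 46128910), measured 50.1, 46.1, 46.1 and 45.1 TPM in WT and 53.3, 51.9, 54.0 and 54.6 TPM in PIM1+/-. Its genotypes were close but did not overlap (0.19 ± 0.05, limma adjusted p = 0.0382). That call held without WT replicate 1 and was lost without any other library (adjusted p up to 0.0954). Mrps18c, the counterpart of S18 itself and the partner of Mrps6 in the small subunit, did not pass and overlapped between genotypes (71.3 ± 8.33 against 77.1 ± 7.04 TPM, 0.12 ± 0.09, limma adjusted p = 0.437).

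**Figure D3:**
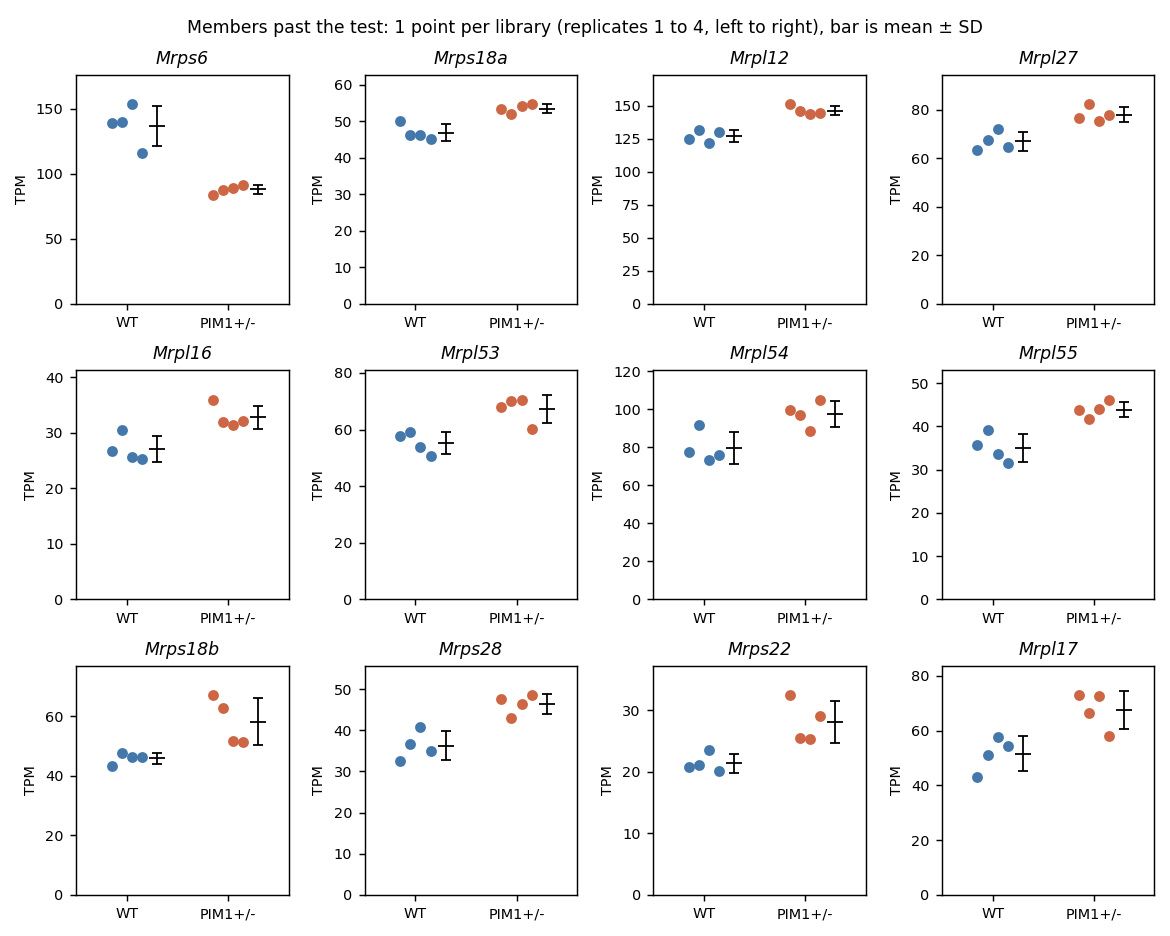
TPM in each library (points, replicates 1 to 4 from left to right; bars are mean ± SD, n = 4) of the 12 genes that passed the test with values as deposited. Mrps6 is lower in all PIM1+/- libraries. The other 11 are higher in PIM1+/- by mean, and only Mrpl54 overlaps, where WT replicate 2 lies above PIM1+/- replicate 3.

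Of the 7 large subunit genes that rose, Mrpl17 had the largest log2 fold change. Mrpl17, a protein near the exit of the nascent chain tunnel (ENSMUSG00000030879, chromosome 7, 105803206 to 105811099), measured 42.9, 51.1, 57.6 and 54.4 TPM in WT and 72.8, 66.4, 72.7 and 58.1 TPM in PIM1+/-. PIM1+/- replicate 4 was barely above WT replicate 3, the highest WT library. The log2 fold change was 0.39 ± 0.10 (limma adjusted p = 0.0330). It held without WT replicate 3 or PIM1+/- replicate 4 and was lost without any other library (adjusted p up to 0.0812). Mrpl55 (ENSMUSG00000036860, chromosome 11, 59202486 to 59206134) measured 35.6, 39.1, 33.5 and 31.5 TPM in WT and 43.8, 41.8, 44.0 and 46.1 TPM in PIM1+/-. The genotypes did not overlap, and the call (0.32 ± 0.07, limma adjusted p = 0.0161) held without each library in turn (adjusted p up to 0.0426).

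Mrpl53 and Mrpl54 are mitochondrion-specific proteins of the large subunit. Mrpl53 (ENSMUSG00000030037, chromosome 6, 83109040 to 83109939) measured 57.6, 59.0, 53.7 and 50.5 TPM in WT and 68.1, 70.1, 70.5 and 60.0 TPM in PIM1+/-. PIM1+/- replicate 4 was the lowest of its group and still above WT (0.28 ± 0.07, limma adjusted p = 0.0288), and the call held only without WT replicate 2 or PIM1+/- replicate 4 (adjusted p up to 0.0738 otherwise). Mrpl54 (ENSMUSG00000034932, chromosome 10, 81264713 to 81266934) measured 77.4, 91.7, 73.3 and 76.1 TPM in WT and 99.7, 96.8, 88.5 and 105 TPM in PIM1+/-. It was the only called member whose genotypes overlapped, through WT replicate 2 (0.29 ± 0.08, limma adjusted p = 0.0371), and its call held only without WT replicate 2 or PIM1+/- replicate 3 (adjusted p up to 0.0915 otherwise).

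Mrpl16 and Mrpl27 belong to the bacterial-type core around the site of peptide bond formation. Mrpl16 (ENSMUSG00000024683, chromosome 19, 11770391 to 11774960) measured 26.7, 30.4, 25.6 and 25.3 TPM in WT and 35.9, 31.9, 31.3 and 32.0 TPM in PIM1+/-. PIM1+/- replicate 1 stood above the other 3 of its group, and the genotypes did not overlap (0.27 ± 0.08, limma adjusted p = 0.0372). The call held only without WT replicate 2 (adjusted p up to 0.0940 otherwise). Mrpl27 (ENSMUSG00000024414, chromosome 11, 94653767 to 94660089) measured 63.6, 67.6, 72.3 and 64.8 TPM in WT and 76.5, 82.2, 75.3 and 78.0 TPM in PIM1+/-. WT replicate 3 came close to the PIM1+/- libraries without overlap (0.22 ± 0.06, limma adjusted p = 0.0302), and the call held only without WT replicate 3 or PIM1+/- replicate 3 (adjusted p up to 0.0898 otherwise).

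Several of the genes that rose also overlap other annotated genes. On the opposite strand lie Eme1 at Mrpl27, Rsph9 at Mrps18a, and noncoding genes or pseudogenes at Mrpl12, Mrpl17, Mrpl53, Mrps18b, Mrps22 and Mrps28. On the same strand, the predicted coding gene Gm42688 spans Mrpl53 and the pseudogene Gm15466 lies within Mrps28. The coding neighbours did not pass, with Eme1 at 0.21 ± 0.14 (limma adjusted p = 0.332), Rsph9 at -0.26 ± 0.18 (adjusted p = 0.358) and Gm42688 at -0.17 ± 0.14 (adjusted p = 0.440). Whether strand was used in counting was not stated, so reads of such pairs may be divided between them.

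The stalk of the large subunit recruits translation factors. Mrpl12, the stalk protein, which is also reported to bind the mitochondrial RNA polymerase (ENSMUSG00000039640, chromosome 11, 120484613 to 120489065), measured 125, 132, 122 and 129.97 TPM in WT and 151, 146, 144 and 145 TPM in PIM1+/-. All PIM1+/- libraries were above all WT libraries (0.20 ± 0.05, limma adjusted p = 0.0157), and the call was lost without WT replicate 1 (adjusted p = 0.0522). The other stalk base genes did not pass, with Mrpl10, which anchors Mrpl12, at 40.9 ± 2.98 against 45.9 ± 2.08 TPM (0.17 ± 0.07, limma adjusted p = 0.110). Mrpl11 measured 34.0 ± 2.80 against 34.8 ± 3.91 TPM (0.03 ± 0.09, limma adjusted p = 0.866). Without WT replicate 2, Mrpl10 passed (adjusted p = 0.0463).

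Other members with a distinct role did not pass. Mrpl58, which retains a peptide release activity that rescues stalled ribosomes, had a log2 fold change of 0.13 ± 0.09 (limma adjusted p = 0.357). Mrpl44, related to RNase III, stood at 30.1 ± 0.40 against 30.2 ± 2.11 TPM (0.00 ± 0.06, limma adjusted p = 0.969). Mrpl45, which ties the ribosome to the inner membrane, stood at 0.01 ± 0.11 (limma adjusted p = 0.972). Mrps30, named for the small subunit and placed in the large one by solved structures, stood at -0.06 ± 0.07 (limma adjusted p = 0.624). Mrps36, now regarded as part of the 2-oxoglutarate dehydrogenase complex and not of the ribosome, stood at 0.11 ± 0.05 (limma adjusted p = 0.172). The most abundant members did not pass either, with Mrpl52 at -0.09 ± 0.05 (limma adjusted p = 0.277), Mrps21 at 0.11 ± 0.08 (adjusted p = 0.335) and Mrpl42 at 0.01 ± 0.06 (adjusted p = 0.898). The scarce or variable Mrpl19, Mrpl35 and Mrps25 stood at 0.15, 0.19 and -0.01 (limma adjusted p = 0.503, 0.418 and 0.972).

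Mrpl23 was the least abundant and the most variable member, and it has a pseudogene of at least 90% identity. It measured 3.12, 3.47, 6.82 and 4.26 TPM in WT and 0.93, 4.60, 5.25 and 4.99 TPM in PIM1+/-, with PIM1+/- replicate 1 far below the rest (log2 fold change -0.23 ± 0.38, limma adjusted p = 0.721). The annotated pseudogene Mrpl23-ps1 was listed at 97.1, 87.5, 83.4 and 78.2 TPM in WT and 84.8, 92.8, 101 and 102 TPM in PIM1+/-. It held 95.6% of the summed level of the pair, which went from 91.0 ± 7.28 to 99.0 ± 9.86 TPM with overlap. Among all members, 25 have annotated pseudogenes (44 in all) of at least 90% identity over at least 80% of the pseudogene's length. In Mrps33 they held 23.3% of the pair, and in the remaining 23 members under 10%.

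The subunits were compared by their medians and sums. The median log2 fold change was 0.13 for the 49 large and 0.11 for the 29 small subunit genes, a difference of 0.02. Summed over its members, the large subunit measured 2850, 2878, 2805 and 2658 TPM in WT and 3073, 2935, 2977 and 3051 TPM in PIM1+/-. Every PIM1+/- library was above every WT library as deposited, by 7.54% in the mean, but the difference turned to -0.25% when mitochondrial transcripts and their nuclear copies were left out of the scaling. The small subunit measured 1536, 1574, 1541 and 1407 TPM in WT and 1638, 1536, 1578 and 1619 TPM in PIM1+/-. Its genotypes overlapped, and the difference of 5.19% turned to -2.42% under that scaling. Without Mrps6 the small subunit sum ran from 1291 to 1434 TPM in WT and from 1449 to 1555 TPM in PIM1+/-, without overlap. That difference was 9.25% as deposited and 1.34% without mitochondrial transcripts and their nuclear copies. WT replicate 4 was the lowest library in the sums of the large and of the small subunit as deposited.

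The ratio of the large to the small subunit sum, which no scaling alters, was 1.85 ± 0.03 in WT and 1.89 ± 0.01 in PIM1+/- (SD, n = 4), with overlap. Without Mrps6 it was 2.03 ± 0.02 and 2.0 ± 0.02, so the direction of this small difference rested on that gene. Placing members by solved structures moved Mrps18a and Mrps30 to the large subunit and left Mrps36 out. The calls then came to 8 higher (15.7%) and 0 lower of 51 large, and 3 higher (11.5%) and 1 lower of 26 small subunit genes, with medians of 0.13 and 0.11. Of all genes tested, 8.93% were higher and 8.54% lower. Split by origin, 6 of 46 bacterial-type members (13.0%) rose and 1 fell in limma (median 0.14), with 19 of the 46 at an unadjusted p under 0.05. Of 31 mitochondrion-specific members 5 (16.1%) rose and 0 fell (median 0.12), with 10 of the 31 (32.3%) at such a p. Split by name, 21 of 49 large and 8 of 29 small subunit genes had such a p, against 32.4% of all genes. Members of 1 ribosome share libraries and are not replicates, so these splits carry no test.

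**Figure D4:**
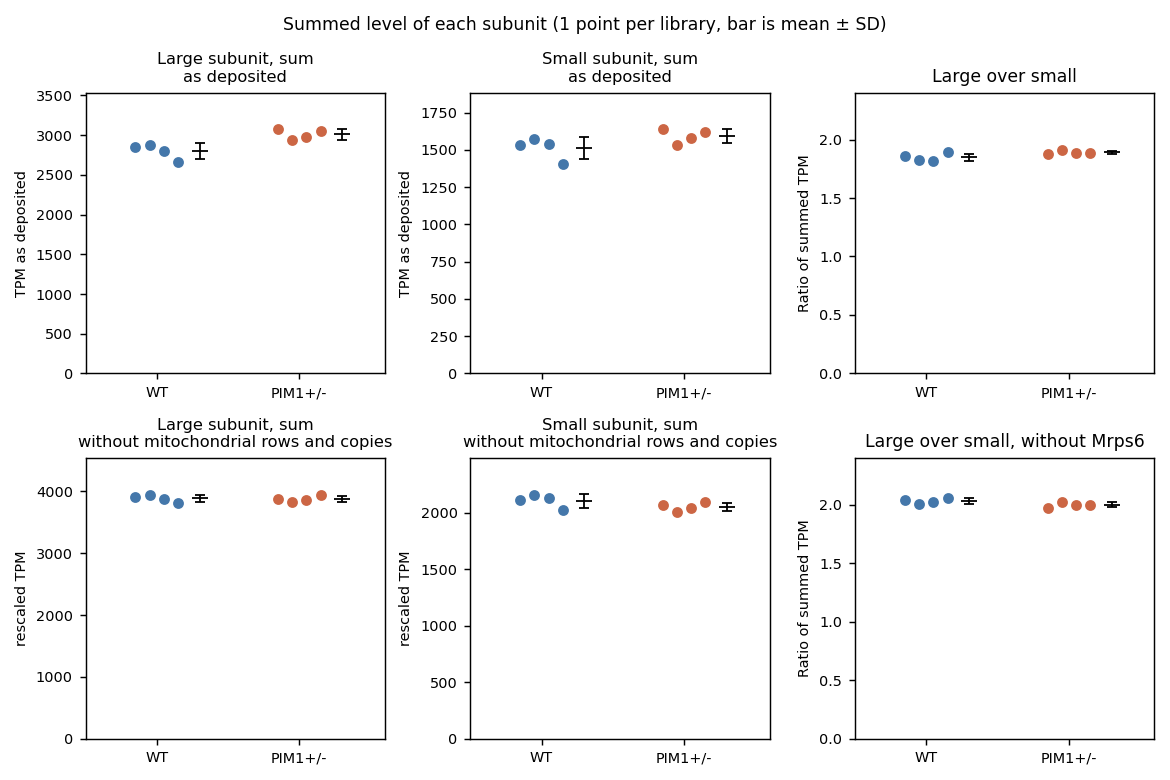
Summed TPM of the large and small subunit genes per library (points; bars are mean ± SD, n = 4), as deposited (top) and rescaled without mitochondrial transcripts and their nuclear copies (bottom), with the ratio of the sums with and without Mrps6 (right). The difference between genotypes in the large subunit, 7.54% as deposited, is -0.25% after rescaling.

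Because TPM has a fixed sum, the members' levels were set against the mitochondrially encoded transcripts, which are very abundant in this tissue. The 37 rows named mt- took 16.0% to 18.2% of the summed TPM in WT libraries and 12.4% to 13.6% in PIM1+/-. With 16 nuclear copies of mitochondrial genes added they took 26.9% to 30.1% and 20.7% to 23.3%. Mitochondrially encoded protein genes numbered 13, of which 10 were tested and 2 stood at 0 TPM in every library. Among the 10 tested, 8 fell and 0 rose in limma, against 8.54% and 8.93% of all genes. All 10 had an unadjusted p under 0.05 in limma, against 32.4% of all genes, and 2 passed without the filter on low values. How reads were divided between mitochondrial genes and their nuclear copies was not tested. Leaving out the rows named mt- and rescaling moved the median of all genes from -0.01 to -0.07. Leaving out the copies as well, an alternative added after the data were seen, moved it to -0.11. The members' median moved in parallel, from 0.13 to 0.07 and 0.02. Relative to the median of all genes it was 0.14, 0.13 and 0.13, and 62, 61 and 61 of 78 members lay above that median. Rescaling multiplies all remaining values of a library by a common factor. Log2 fold changes then shift nearly together, so this offset had to stay close and is no separate result.

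Which members passed depended on the scaling. Without mitochondrial rows and copies, Mrps22 (log2 fold change 0.27, limma adjusted p = 0.0466), Mrps28 (0.24, adjusted p = 0.0427) and Mrpl55 (0.22, adjusted p = 0.0391) were higher, and Mrps6 (-0.74, adjusted p = 0.000400), Mrpl52 (-0.19, adjusted p = 0.0314) and Mrps26 (-0.21, adjusted p = 0.0485) lower. Of all genes tested, 5.73% were higher and 17.4% lower under that scaling. Upper quartile scaling left 4 members higher (5.13%) and 1 lower, against 7.26% and 11.9% of all genes. The summed level of all members differed by 6.71% as deposited (4312 ± 171 against 4602 ± 109 TPM, SD, n = 4) and by -1.02% without mitochondrial rows and copies.

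**Figure D5:**
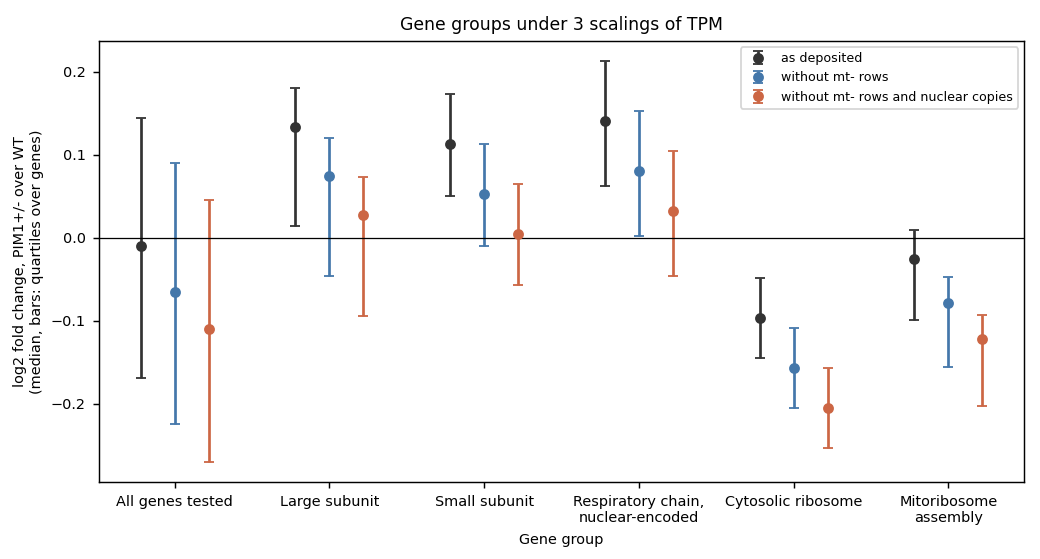
Median log2 fold change (PIM1+/- over WT; bars are quartiles over genes) of all genes tested, the large and small subunit genes and 3 other gene groups, with TPM as deposited, without mitochondrial rows, and without these rows and their nuclear copies. All groups shift down together, which a common factor per library requires. Both subunits lie above the median of all genes, at 0.03 and 0.01 against -0.11 in the last scaling.

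The RNA of the ribosome and its remaining proteins were read from lists of the same pathway. The mitochondrial rRNA of the large subunit, mt-Rnr2, fell from 686 ± 159 to 409 ± 81.9 TPM (SD, n = 4; log2 fold change -0.74 ± 0.17, limma adjusted p = 0.0196, and 0.0504 without PIM1+/- replicate 2). That of the small subunit, mt-Rnr1, went from 953 ± 218 to 690 ± 124 TPM and did not pass (-0.46 ± 0.17, limma adjusted p = 0.0955). rRNA levels depend on how libraries select RNA, which the labels do not state beyond total RNA. Of 5 mitoribosome proteins with other symbols 2 rose as deposited, Aurkaip1 (0.25 ± 0.05, limma adjusted p = 0.00846) and Gadd45gip1 (0.26 ± 0.07, adjusted p = 0.0382), and neither passed without mitochondrial rows and copies (0.0605 and 0.108). Chchd1 (0.16), Ptcd3 (0.01) and Dap3 (0.00) did not pass.

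Of 67 tested genes that build and serve the ribosome, 4 rose (5.97%, against 8.93% of all genes) and 3 fell (4.48%, against 8.54%). Of 22 assembly factors 0 rose and 1 fell in limma, the GTPase gene Gtpbp10 (-0.27 ± 0.08, adjusted p = 0.0493), with 3 at an unadjusted p under 0.05 and a median of -0.03. Of 13 translation factors Tufm, the elongation factor that delivers aminoacyl-tRNA, rose (0.21, limma adjusted p = 0.0274) and Guf1 fell (-0.26, adjusted p = 0.0328). Of 17 mitochondrial aminoacyl-tRNA synthetases Lars2 rose (0.27, limma adjusted p = 0.0174) and Hars2 fell (-0.27, adjusted p = 0.0214). Of 15 genes for mitochondrial transcription and RNA processing 2 rose, the degradosome genes Pnpt1 (0.48, limma adjusted p = 0.0411) and Supv3l1 (0.26, adjusted p = 0.0208), while the polymerase gene Polrmt (-0.01) and Tfam (0.22) did not pass. None of the genes of these lists that rose passed without mitochondrial rows and copies. With 1 library left out, Lars2 and Aurkaip1 passed in 8 of 8 fits, Hars2 in 5, Supv3l1 in 4, Tufm in 3, Guf1 and Pnpt1 in 2, Gtpbp10 in 1 and Gadd45gip1 in 0.

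Among 11 nuclear regulators of mitochondrial genes 5 had an unadjusted p under 0.05 in limma, against 32.4% of all genes. With adjustment 0 rose and 3 fell, against 8.93% and 8.54% of all genes. One of the 3, Mycn, passed the filter on low values only through the WT libraries (1.33 to 2.18 TPM, against 0.38 to 0.62 TPM in PIM1+/-), so it had to differ and its call (-0.80, limma adjusted p = 0.00595) lends no support. It could be tested in only 4 of 8 fits with 1 library left out. Yy1 fell from 21.3 to 16.8 TPM (-0.33, limma adjusted p = 0.0305) and Ppargc1a, a coactivator of mitochondrial genes, from 14.6 to 9.82 TPM (-0.54, adjusted p = 0.0431). Yy1 and Ppargc1a each passed in 2 of 8 fits with 1 library left out (adjusted p up to 0.0795 and 0.107). Nrf1 (0.19, limma adjusted p = 0.190) and Gabpa (-0.11, adjusted p = 0.443), whose motifs were counted above, did not pass, nor did Myc (-0.07, adjusted p = 0.740). For comparison, 26 of 80 tested nuclear respiratory chain genes (32.5%) rose and 3 fell as deposited (median 0.14). Of 82 tested cytosolic ribosomal protein genes 0 rose and 12 fell (median -0.10), with 31 at an unadjusted p under 0.05. Over all genes tested, 8.93% were higher, 8.54% lower and 32.4% at such an unadjusted p. Without mitochondrial rows and copies the respiratory chain counts came to 8 and 4, and the cytosolic ones to 0 and 52, with medians of 0.03 and -0.21. Of all genes, 5.73% were then higher and 17.4% lower. Leaving out WT replicate 4 reduced the 26 higher respiratory chain genes to 13, leaving out WT replicate 3, PIM1+/- replicate 3 or PIM1+/- replicate 4 to 14 each, and leaving out PIM1+/- replicate 2 to 15. The 12 lower cytosolic genes came to 5 when WT replicate 3 was dropped, to 6 each for WT replicate 1, PIM1+/- replicate 2 or PIM1+/- replicate 3, and to 7 for PIM1+/- replicate 1.

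Markers of some other cell types differed between the genotypes, while the sums of B and plasma cell and of stromal markers overlapped. The summed level of 10 T and NK cell markers was 10.1 to 23.0 TPM in WT and 40.8 to 102 TPM in PIM1+/-, and 7 of 9 tested rose. That of 8 myeloid markers was 1.78 to 5.15 against 13.3 to 15.6 TPM (2 of 3 tested rose), and that of 4 red cell transcripts 5.88 to 14.6 against 20.9 to 27.9 TPM (2 of 3). Of all genes tested 8.93% were higher. Markers this low in WT may have passed the filter on low values only through PIM1+/- libraries. The calls on T and NK, myeloid and red cell markers therefore lend no support. The 5 B and plasma cell markers summed to 4.20 to 14.5 against 8.09 to 13.1 TPM, and the 17 stromal markers to 4.71 to 6.20 against 3.35 to 4.87 TPM, with 1 stromal marker at 0 throughout. The 12 epithelial markers, which define the labelled cell type, summed to 22804 to 28188 TPM in WT and 31221 to 37029 TPM in PIM1+/-, with 6 higher and 1 lower. Their part in the members' results was not tested.

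Pim1, the gene named in the genotype, did not separate the libraries. It measured 8.79, 7.86, 5.72 and 8.83 TPM in WT and 7.97, 7.23, 5.64 and 5.84 TPM in PIM1+/- (log2 fold change -0.19, limma adjusted p = 0.411, exact permutation p = 0.286, two-sided, where 0.0286 is the smallest possible), so groups are named by their labels. Column sums ran from 990958 to 992187 TPM, and correlations of log2(TPM + 1) across genes, which are not independent replicates, from 0.976 to 0.983 within and 0.946 to 0.972 between genotypes.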

How the data were processed

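Total RNA of colon epithelial cells had been extracted with TRIzol and sequenced, per the labels' protocols. The authors deposited TPM per gene, which the design text says were estimated by RSEM. HISAT2, StringTie, edgeR and the build GRCm38.p6 are also named, without versions or roles, per the submitters' processing notes. Not given in the sources used here were depth, filters, strand setting and annotation release. Values were rounded to hundredths, and 0 sample columns were left unused.

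The test was limma 3.58.1 (R 4.3.3) on log2(TPM + 1), two-sided, with genotype as the only term and a trended empirical Bayes prior. It covered the 12760 genes that reached 1 TPM in 4 or more of 8 libraries. Adjustment was by Benjamini-Hochberg, and calls have an adjusted p under 0.05. The members, gene lists and tests were chosen with earlier results of these data known. Text names all called members, the 3 highest, lowest and most variable ones, members with a distinct role, and up to 4 genes with the smallest p of each other list; Slc5a3, Gm49711 and other overlapping genes, Mrpl23-ps1, Mrps33, Mrps26 and further genes of those lists were named after their values were seen. Pseudogenes were matched with BLAST+ 2.17.0 (at least 200 bases), coordinates came from GENCODE M21, and figures were drawn with matplotlib 3.10.9. The fit was also run on simulated data. Its planted changes were larger than the increases of the called members, so that run does not bear on them.

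As alternatives, the replicate number entered as a block, each library was left out in turn, the trend was dropped, TPM were scaled by upper quartile or rescaled without mt- rows, the filter was dropped or set to a mean of 5 TPM, the pseudocount was 0.1, and subunits were assigned by structure. Rescaling also without nuclear copies was added after the data were seen.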

Additional observations from a re-analysis of the deposited data

Results flagged for a closer look

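Single libraries that stood apart from the other 3 of their genotype were sought in the named members, in 56 groups of 4 libraries, where chance marks about 1 group in 20. There were 3 such values. Mrpl16 measured 35.89 TPM in PIM1+/- replicate 1, above the other PIM1+/- libraries, with a gap of 0.845 of the group's range (above Dixon's 95% critical value, as are both others). Mrpl23 measured 0.93 TPM in PIM1+/- replicate 1, below the others (0.850 of the range). Mrpl45 measured 14.17 TPM in WT replicate 1, below the other WT libraries (0.881 of the range).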

How the results depend on the processing

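Both subunit medians stayed positive and Mrps6 stayed called in every alternative run, while the number of called members changed. The median of all genes, -0.01 as reported, was 0.01 with a mean of at least 5 TPM and 0.01 without WT replicate 3, and the medians of the translation factors (0.04) and synthetases (0.02) became -0.01 and -0.02 with upper quartile scaling. Large subunit genes higher were 7 as reported, and 4 without the mean-variance trend, 2 with upper quartile scaling, 1 without mt- rows, 3 without a filter, 1 with the replicate block, 1 without mt- rows and copies, and 1 to 9 with 1 library left out. Small subunit genes higher were 4 as reported, 2 under each of the first 4 of these and without mt- rows and copies, 1 with the replicate block, and 1 to 3 with 1 library left out. Lower genes were 0 large (0 to 0 with 1 library left out) and 1 small (1 to 1), and 1 and 2 without mt- rows and copies. Over all genes, 1139 higher and 1090 lower became 730 and 2217 without mt- rows and copies, and 744 to 1009 and 602 to 1041 with 1 library left out. Lower genes were 666 without a filter and 689 with the replicate block. Of the pathway lists, 6 higher became 3 without mt- rows, 3 with the replicate block, 0 without mt- rows and copies and 2 to 4 with 1 library left out, and 6 lower became 3 without a filter, 2 with the replicate block, 12 without mt- rows and copies and 0 to 4 with 1 library left out. The large subunit median of 0.133 became 0.0748 without mt- rows and 0.0276 without copies as well, and the small subunit median of 0.113 became 0.0532 and 0.00502. The cause of these shifts was not tested, except that rescaling raises the other values of a library by the share left out. The replicate numbers are only labels: deviations of same-numbered libraries correlated at -0.136, 0.0320, -0.0332 and -0.0710, and 0 of 4 libraries matched their own number best. With unknown depth, counting error could not be given.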
